A study of Mus musculus with 6 samples.

Results

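The genes described here are 34 mouse genes that make fatty acids from acetyl-CoA and then lengthen or desaturate them, taken by symbol from a fixed list; all 34 were among the 14861 genes of the expression table. They were read by RNA-seq in inguinal white adipose tissue, a subcutaneous depot near the hind limb. The 3 AdIGF1RKO mice carried a floxed Igf1r gene and Cre recombinase under the adiponectin promoter, which is active in adipocytes, so other cells of the pad keep the receptor. The 3 Flox mice were littermates that carried the floxed gene and served as controls. Every mouse ate a diet with 10% of its calories from fat for 24 weeks and was fasted overnight before the pad was frozen. Sex is not stated in the labels, and the 2 parental lines are listed on mixed backgrounds that include B6 with 129 or FVB.

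De novo lipogenesis begins with citrate that leaves the mitochondrion and is cleaved to acetyl-CoA in the cytosol. Acetyl-CoA carboxylase turns this into malonyl-CoA, fatty acid synthase uses malonyl-CoA and NADPH to build palmitate, and membrane-bound elongases and desaturases make the longer and unsaturated acids. In adipocytes the pathway is driven by insulin and feeding through the transcription factors SREBP-1c and ChREBP, and it is known to be low in fasted animals.

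Values are given as scaled CPM, which are read counts divided by a median-ratio size factor for each library and put on the CPM scale of an average library. They are not divided by gene length, so they compare 1 gene between libraries and not different genes. Differences are log2(scaled CPM + 1) in AdIGF1RKO minus the same in Flox. Libraries held 60617147 to 70695527 reads, and each tested gene of the list had 629 reads or more in every library. The labels speak of mice, and nothing states further how the replicates were collected. In bulk tissue, fewer adipocytes and less RNA per adipocyte cannot be told apart.

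Igf1r, the targeted gene, had 6.11, 5.27 and 4.85 scaled CPM in the AdIGF1RKO libraries, against 6.44, 6.47 and 5.86 in the Flox libraries. The groups overlapped, with AdIGF1RKO 1 above Flox 3, and the difference of -0.18 (SE 0.12) did not pass limma over all genes (adjusted p = 0.998). Which exons Cre excises is not stated in the labels, and a total over the whole gene does not check the genotype.

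Of the 34 lipogenesis genes, 33 had a mean of at least 1 scaled CPM and were tested. None of the 33 passed limma at an adjusted p under 0.05, as was true of all 12993 tested genes (0%), and the adjusted p of each was 0.998. At an unadjusted p under 0.05 there was 1, Fads3, higher in AdIGF1RKO, against 2.96% of all tested genes (1.83% higher and 1.13% lower). edgeR called none of them (0% of all genes; 0 at an unadjusted p under 0.05, against 2.91%), and DESeq2 also called none (0.177% of all genes; 4 at an unadjusted p under 0.05, against 3.8%). A share of 1 in 33 is near the background. Without AdIGF1RKO 1, 6 of the 33 had an unadjusted limma p under 0.05, all positive (Aacs, Pgd, Scd2, Thrsp, Mid1ip1 and Pnpla3), against 3.66% of all tested genes.

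The differences leaned to the positive side. Of the 33 genes, 27 were positive under median-ratio scaling, against 44.8% of all tested genes. Their median was 0.13, against -0.02 for all tested genes. With the values as deposited 14 were positive, against 1917 of the 12993 tested genes, and the median was -0.03, against -0.17. When library sums were made equal 30 were positive, against 9397 of the 12993, and the median was 0.25, against 0.09. Counts of positive genes given below for these 2 scalings have those same backgrounds. This lean rested on 1 mouse. Without AdIGF1RKO 2, 15 of the 33 were positive and the median was -0.02, against -0.03 for all tested genes.

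**Figure D1:**
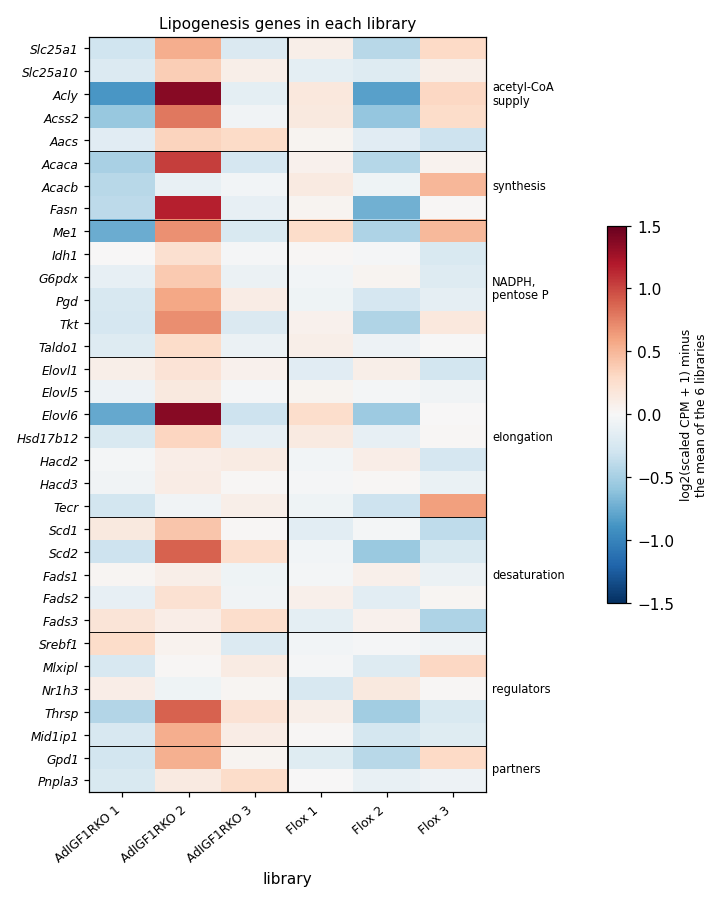
Deviation of each of the 33 tested lipogenesis genes (rows, grouped by role) from its mean over the 6 libraries, in log2(scaled CPM + 1), with AdIGF1RKO libraries left of the line and Flox libraries right of it. The AdIGF1RKO 2 column is red for most genes, with Acly and Elovl6 darkest, while AdIGF1RKO 1 and Flox 2 are blue for the same enzymes.

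Mice of the same genotype differed among themselves: for Acly, Elovl6, Acaca and Me1, the highest and the lowest library were both from AdIGF1RKO mice. The same held for Slc25a10, Taldo1, Elovl5, Hsd17b12, Srebf1 and Pnpla3, which spanned less. AdIGF1RKO 2 was the highest library for 25 of 33 genes, against 19.9% of all tested genes. AdIGF1RKO 1 or Flox 2 was the lowest library for 22 of 33, against 31.6% of all tested genes. The median deviation of the genes from their own mean was -0.23 in AdIGF1RKO 1, 0.33 in AdIGF1RKO 2 and -0.02 in AdIGF1RKO 3, and 0.02, -0.17 and -0.0022 in Flox 1, 2 and 3. A control mouse and a knockout mouse therefore lay together at the low end, and another knockout mouse lay alone at the high end.

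Elovl6, Acly, Fasn, Acaca, Scd2 and Thrsp were the 6 tested genes at which AdIGF1RKO 2 reached at least 2 times the mean of the other 5 libraries, against 1.29% of all tested genes. The ratio was 3.06 for Elovl6, 2.96 for Acly, 2.59 for Fasn, 2.35 for Acaca, 2.05 for Scd2 and 2.04 for Thrsp. These 6 were singled out after their values were seen. By contrast, Fads1, Elovl5 and Hacd3 spanned only 1.13, 1.17 and 1.16 times between their highest and lowest libraries. The members thus ranged from enzymes that varied several-fold between mice to enzymes that were almost flat. The median gene of the list spanned 1.65 times, against 1.45 for all tested genes.

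Promoter sequence is shown for Fasn, Acly and Thrsp, which were all highest in AdIGF1RKO 2, and for Fads3, one of 2 genes of the list whose groups did not overlap. Each line is the 250 bases before the transcription start in RefSeq on GRCm38.p6, 5′ to 3′ on the gene's strand, at chr11:120824548-120824797 (minus) for Fasn, chr11:100528001-100528250 (minus) for Acly, chr7:97417551-97417800 (minus) for Thrsp and chr19:10041298-10041547 (plus) for Fads3. Capitals mark CCAAT, the box bound by NF-Y, and GGGCGG, the GC box bound by Sp1, on either strand.
Fasn: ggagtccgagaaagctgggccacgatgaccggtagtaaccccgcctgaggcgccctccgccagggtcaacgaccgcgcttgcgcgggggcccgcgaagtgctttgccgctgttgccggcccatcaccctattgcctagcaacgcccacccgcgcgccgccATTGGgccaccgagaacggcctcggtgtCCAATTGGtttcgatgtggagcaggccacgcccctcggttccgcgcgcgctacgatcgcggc
Acly: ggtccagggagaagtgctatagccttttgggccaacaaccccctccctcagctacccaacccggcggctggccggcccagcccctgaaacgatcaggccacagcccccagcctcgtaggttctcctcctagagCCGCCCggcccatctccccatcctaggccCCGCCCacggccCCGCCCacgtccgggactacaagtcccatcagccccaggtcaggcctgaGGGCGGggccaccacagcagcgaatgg
Thrsp: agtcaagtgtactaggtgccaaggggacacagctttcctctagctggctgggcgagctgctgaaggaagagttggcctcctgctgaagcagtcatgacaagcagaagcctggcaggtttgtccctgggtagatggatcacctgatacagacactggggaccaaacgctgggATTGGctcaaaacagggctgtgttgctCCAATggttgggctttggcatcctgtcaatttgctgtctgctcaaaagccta
Fads3: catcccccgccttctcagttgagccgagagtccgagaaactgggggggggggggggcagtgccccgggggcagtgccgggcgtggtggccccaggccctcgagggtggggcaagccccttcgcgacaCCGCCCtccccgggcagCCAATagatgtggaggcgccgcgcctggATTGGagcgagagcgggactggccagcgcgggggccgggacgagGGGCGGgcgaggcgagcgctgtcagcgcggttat

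Fasn held 3 CCAAT matches, of which 2 overlap as a palindrome, Thrsp held 2 and Fads3 held 2. Acly held none but 4 GC boxes, and Fads3 held 2 GC boxes. Of the 34 genes, 30 matched an entry of the promoter table by symbol. CCAAT was present in 18 of the 30 (60%), against 37.5% of all 27025 genes with a promoter and 40% of the 10165 tested genes with one. GGGCGG was present in 21 of 30 (70%), against 35.4% of all genes and 62.8% of tested genes.

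CACGTG, the palindromic E-box, was in 4 of the 30 (Slc25a1, Elovl5, Hacd3 and Mlxipl), against 6.86% of all genes and 9.7% of tested genes. TCACNCCAC, a form of the sterol regulatory element, was in 2 (Mlxipl and Aldoc), against 1.22% of all genes and 1.21% of tested genes. A direct repeat of AGGTCA with 4 bases between the copies, which LXR binds, was in none, against 0.0148% of all genes and 0% of tested genes. Both strands were searched, a gene with several starts counts once if any start has a match, and a match is a run of letters, not a shown binding site.

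AdIGF1RKO 2 also differed in other cell markers. The summed level of 9 lipid-associated macrophage genes (Trem2, Spp1, Mmp12, Gpnmb, Cd9, Lgals3, Itgax, Atp6v0d2 and Cd68) was 1085 scaled CPM in AdIGF1RKO 2, against 344 to 351 in the other AdIGF1RKO libraries and 314 to 349 in the Flox libraries. With Lpl, all 10 genes of that list had a positive difference (8 with the values as deposited), with a median of 0.72 that was 0.05 without AdIGF1RKO 2, and none passed limma. Of mature adipocyte markers (15 of 15 tested), 5 were positive and 10 negative. With equal library sums 11 were positive, against 9397 of the 12993 tested genes. These markers took 6.48% of reads in AdIGF1RKO 2. Shares were 6.89% to 7.63% in the other AdIGF1RKO libraries and 5.39% to 8.67% in Flox, with Flox 3 lowest. In scaled CPM these markers summed to 61280.1 in AdIGF1RKO 2, the lowest of any library. Sums were 69898.1 and 69963.1 in the other AdIGF1RKO libraries and 66723.5 to 83635.4 in Flox. AdIGF1RKO 2 was the lowest library for 7 of the 15, against 18.6% of all tested genes. Of these markers 1, the hormone gene Lep, had an unadjusted limma p under 0.05 (2.96% of all tested genes) and lay above without overlap (4.41%). Lep had 396, 580.0 and 502 scaled CPM in AdIGF1RKO, against 200.2, 277 and 159 in Flox, without overlap, with a difference of 1.23 (SE 0.23), a limma adjusted p of 0.998 and a DESeq2 adjusted p of 0.000675. Adipoq was lowest of all in AdIGF1RKO 2, at 3348 scaled CPM, against 4072 and 4214 in the other AdIGF1RKO libraries and 3799 to 4927 in Flox. The part of these markers in the lipogenic values was not tested.

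Skeletal muscle RNA was the other uneven component. The 18 muscle markers in the table took 0.0580%, 0.298% and 4.92% of reads in AdIGF1RKO 1, 2 and 3, against 0.949%, 0.114% and 13.6% in Flox 1, 2 and 3. Of the 18, 17 had a negative difference, and none passed limma. Summed mammary epithelial markers (4 of 12 in the table) were at most 6.70 scaled CPM in AdIGF1RKO and 7.78 in Flox, and summed lymph node markers (9 of 10) at most 37.1 in AdIGF1RKO and 51.8 in Flox. Brown and beige markers (8 of 10 in the table) summed to 465 to 1103 in AdIGF1RKO and 392 to 2573 in Flox, and they include Cox7a1, Cox8b and Fabp3, which muscle also expresses. Without AdIGF1RKO 3 and Flox 3, the libraries richest in muscle RNA, 31 of the 33 lipogenesis genes were positive, and their median was 0.18. That setting leaves AdIGF1RKO 2, on which the lean rested, beside AdIGF1RKO 1 only. No share of all tested genes is given for it, and the part of muscle RNA in the lean was not tested.

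**Figure D2:**
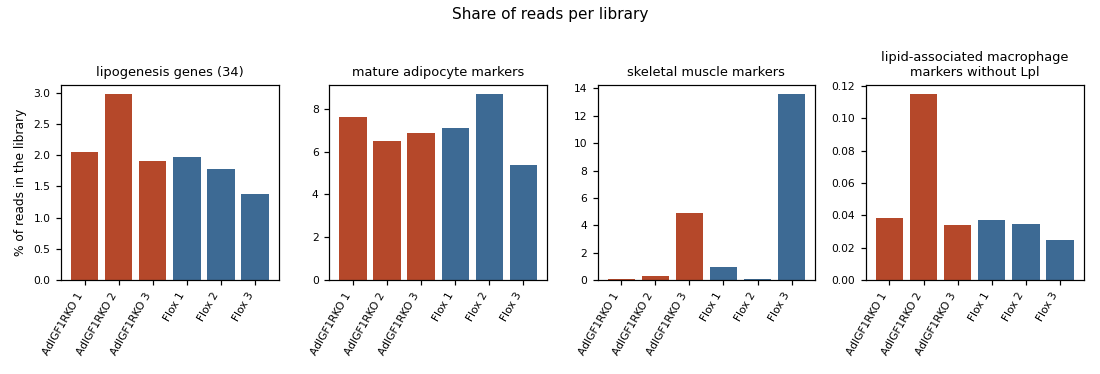
Share of each library's reads, in percent, that fell on the 34 lipogenesis genes and on markers of mature adipocytes, skeletal muscle and lipid-associated macrophages (without Lpl, which adipocytes express), with AdIGF1RKO bars left of Flox bars. AdIGF1RKO 2 has the largest share for lipogenesis genes (2.97%) and for macrophage markers (0.115%), and Flox 3 the largest for muscle markers (13.6%).

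Citrate export and acetyl-CoA supply had 5 genes, all with a positive difference (3 with the values as deposited), from 0.02 for Slc25a1 to 0.29 for Aacs. Without AdIGF1RKO 2 only Slc25a10 and Aacs stayed positive. Acly, ATP citrate lyase, had 186, 881 and 307 scaled CPM in the AdIGF1RKO libraries, against 379, 194 and 423 in the Flox libraries. AdIGF1RKO 2 stood above every other library and AdIGF1RKO 1 below every other, so the groups overlapped fully. The difference of 0.23 had an SE of 0.59 and a 95% interval from -1.20 to 1.66.

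Acss2, which makes cytosolic acetyl-CoA from acetate, was likewise highest in AdIGF1RKO 2 and lowest in AdIGF1RKO 1 and Flox 2, with 94.7, 245 and 136 in AdIGF1RKO and 156, 94.2 and 171 in Flox. Slc25a1, the mitochondrial citrate carrier, had 349, 631 and 371 in AdIGF1RKO, against 459.5, 322 and 529 in Flox. Its difference was 0.02 (SE 0.28). Slc25a10, the dicarboxylate carrier, varied less, with 149.9, 225 and 185 in AdIGF1RKO and 156, 151 and 184 in Flox.

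Aacs, acetoacetyl-CoA synthetase, which brings ketone bodies into lipid synthesis, had the smallest unadjusted p of this role (0.125, limma). Its libraries held 73.6, 105 and 101 scaled CPM in AdIGF1RKO, against 85.6, 73.5 and 66.8 in Flox. AdIGF1RKO 2 and 3 lay above all controls and AdIGF1RKO 1 lay among them. The difference was 0.29 (SE 0.17). Without AdIGF1RKO 1, a library singled out by these same values, it was 0.45 (limma, unadjusted p = 0.0174, adjusted p = 0.9998). In that setting 3.66% of all tested genes had an unadjusted p under 0.05.

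Fatty acid synthesis itself is carried by Acaca, Acacb and Fasn. Fasn, fatty acid synthase, had 865, 2547 and 1043 scaled CPM in AdIGF1RKO, against 1168, 688 and 1150.3 in Flox. A single AdIGF1RKO library lay above the controls and the other pair lay among them. The means were 1485 ± 924 in AdIGF1RKO and 1002 ± 272 in Flox (SD, 3 mice each), a difference of 0.44 (SE 0.43) that was -0.04 without AdIGF1RKO 2.

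Acaca, acetyl-CoA carboxylase 1, which supplies malonyl-CoA for synthesis, had 162, 467 and 190.5 in AdIGF1RKO, against 236, 168 and 235 in Flox. As for Fasn, its positive difference (0.21, SE 0.40) rested on AdIGF1RKO 2 and was -0.26 without that library. Acacb, acetyl-CoA carboxylase 2, sits at the mitochondrion, where its malonyl-CoA restrains entry of fatty acids for oxidation. It had 30.6, 38.0 and 40.1 in AdIGF1RKO, against 45.3, 39.4 and 58.3 in Flox.

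Acacb was the only one of these synthesis genes with a negative difference, and AdIGF1RKO 3 and Flox 2 overlapped by less than 1 scaled CPM. The difference was -0.38 (SE 0.17, 95% interval -0.79 to 0.04), with an unadjusted limma p of 0.0703 and an adjusted p of 0.998. It was negative without each library in turn, from -0.50 to -0.22, and -0.30 without the pair of muscle-rich libraries. With replicate number as a block, limma gave Acacb an unadjusted p of 0.0361 and an adjusted p of 0.914, where 4.48% of all tested genes lay under 0.05.

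**Figure D3:**
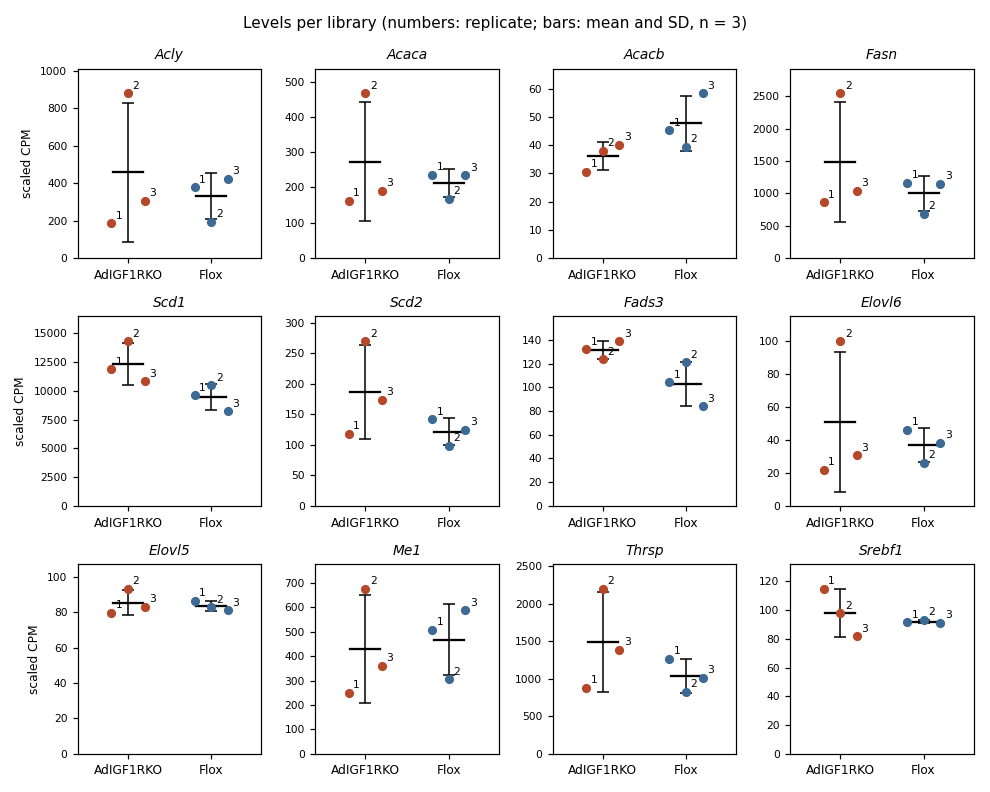
Scaled CPM of 12 lipogenesis genes in the 3 AdIGF1RKO libraries (left in each panel) and the 3 Flox libraries (right), with replicate numbers, means and SD. AdIGF1RKO 2 lies far above the rest for Acly, Acaca, Fasn and Elovl6, while Scd1 and Fads3 are the only panels in which the groups do not overlap.

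NADPH for synthesis comes from malic enzyme, cytosolic isocitrate dehydrogenase and the pentose phosphate pathway. AdIGF1RKO 2 was the highest library for all 6 genes of this role, and 4 had a positive difference. With the values as deposited 1 was positive, against 1917 of the 12993 tested genes. Me1, malic enzyme, had 251, 675 and 359.7 scaled CPM in AdIGF1RKO, against 508, 305 and 588 in Flox. It was negative over the groups (-0.19, SE 0.40) although its highest library was a knockout one.

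G6pdx, glucose-6-phosphate dehydrogenase, opens the pentose phosphate pathway and had 127, 181 and 129.6 in AdIGF1RKO, against 134, 141 and 120.0 in Flox. Pgd, the next dehydrogenase, had the smallest unadjusted p of this role (0.197, limma), with 222, 392 and 284 in AdIGF1RKO and 251, 221 and 239.9 in Flox. Its controls were tight and its knockout libraries were spread, so the difference of 0.29 had an SE of 0.20. Tkt, transketolase, had 560.3, 1082 and 573 in AdIGF1RKO, against 698, 487 and 744 in Flox.

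The remaining pair of this role were Taldo1 and Idh1. Taldo1, transaldolase, averaged 542 ± 94.9 in AdIGF1RKO and 540.2 ± 32.1 in Flox (SD, 3 mice each), with a difference of -0.01. Idh1, isocitrate dehydrogenase, averaged 275 ± 28.0 in AdIGF1RKO and 248 ± 21.8 in Flox, with a difference of 0.15 (SE 0.11).

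Elongation was the steadiest role, with differences from -0.17 for Tecr to 0.24 for Elovl1 and a median of 0.06. The median spread within groups was 0.14 on the log2 scale, against 0.42 for acetyl-CoA supply and 0.61 for synthesis. Elovl6, which extends palmitate to stearate, broke that pattern. It had 22.0, 99.7 and 30.6 scaled CPM in AdIGF1RKO, against 46.1, 26.0 and 38.4 in Flox. AdIGF1RKO 2 was 4.53 times AdIGF1RKO 1, its lowest library, and the difference was 0.18 (SE 0.55), or -0.45 without AdIGF1RKO 2.

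Elovl5, the elongase of polyunsaturated acids, had 79.6, 93.2 and 83.1 in AdIGF1RKO, against 86.6, 82.9 and 81.2 in Flox. Its difference was 0.03, with a 95% interval from -0.19 to 0.25. Elovl1, which acts on very long saturated chains, had the smallest unadjusted p of the role (0.0797, limma), with 60.4, 65.7 and 59.7 in AdIGF1RKO and 50.3, 60.3 and 47.0 in Flox. Only Flox 2 kept its groups from separating. Without Flox 2, a library singled out by these same values, the difference was 0.34 (limma, unadjusted p = 0.0196, adjusted p = 0.923). In that setting 383 of the 12993 tested genes had an unadjusted p under 0.05.

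The other enzymes of the elongation cycle were Hsd17b12, the ketoacyl-CoA reductase, Hacd2 and Hacd3, the dehydratases, and Tecr, the enoyl-CoA reductase. Hacd2 and Hacd3 had differences of 0.13 (SE 0.11) and 0.06 (SE 0.09), and Hsd17b12 had -0.02 (SE 0.16). Tecr was highest in Flox 3, with 225, 263 and 290.1 in AdIGF1RKO against 262, 221 and 421 in Flox. Flox 3 is also the library with the most muscle RNA, and without AdIGF1RKO 3 and Flox 3 the Tecr difference was 0.02. The part of muscle RNA in the Tecr values was not tested.

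Desaturation held both genes whose groups did not overlap. Those were Scd1 and Fads3, each with all AdIGF1RKO libraries above all Flox libraries, 2 of 33 against 4.41% of all tested genes in that direction. No gene of the list had all AdIGF1RKO libraries below all Flox libraries, against 3.86% of all tested genes, and 8.27% of all tested genes were without overlap in either direction. All 5 desaturase genes had a positive difference, with a median of 0.36. With the values as deposited, or without AdIGF1RKO 2, 3 were positive (Scd1, Scd2 and Fads3).

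Scd1, stearoyl-CoA desaturase 1, makes oleate and palmitoleate and took the most reads of the whole list. Its libraries held 11892, 14328 and 10824 scaled CPM in AdIGF1RKO, against 9623, 10488 and 8229 in Flox. The lowest knockout mouse stood a little above the highest control. The difference of 0.38 (SE 0.17, 95% interval -0.03 to 0.80) had an unadjusted limma p of 0.0633, and it lay between 0.27 and 0.47 without each library in turn. DESeq2 gave an unadjusted p of 0.0162 and an adjusted p of 0.974.

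Scd2, the isoform known for its role in skin and in early life, had 118, 269.9 and 174 in AdIGF1RKO, against 142, 98.6 and 125 in Flox. It had the largest difference of the list (0.55, SE 0.30), which was 0.25 without AdIGF1RKO 2 and 0.85 without AdIGF1RKO 1. The groups overlapped through AdIGF1RKO 1, which lay below 2 controls. Of the 50-base windows of Scd1 transcripts, 2.97% also occur in Scd2 transcripts in the GENCODE M21 annotation, so some reads could be assigned to either.

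Fads3, a desaturase of the Fads cluster, had 132, 124 and 139 scaled CPM in AdIGF1RKO, against 104, 121 and 84.0 in Flox. The gap between AdIGF1RKO 2 and Flox 2 was small. The difference was 0.36 (SE 0.14, 95% interval 0.01 to 0.71), with an unadjusted limma p of 0.0433 that did not survive adjustment. Fads3 was lowest in Flox 3, the muscle-rich control, and highest in AdIGF1RKO 3. Without these 2 libraries, its extremes, the difference was 0.18, and the part of muscle RNA was not tested. The Fads3 difference was 0.40 without AdIGF1RKO 2, so it did not follow the pattern of Fasn and Acly.

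Fads1 and Fads2 encode the delta-5 and delta-6 desaturases of polyunsaturated fatty acid synthesis. Fads1 had 59.9, 62.4 and 56.0 in AdIGF1RKO, against 57.3, 61.8 and 55.3 in Flox. Fads2 had 11.7, 15.1 and 12.3 in AdIGF1RKO, against 13.5, 11.3 and 13.0 in Flox. Both were near even, with differences of 0.03 (SE 0.09) and 0.04 (SE 0.13).

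The transcription factors varied less between mice than Fasn and Acly, which they are known to control. Srebf1, which encodes SREBP-1, had 115, 97.8 and 81.7 scaled CPM in AdIGF1RKO, against 91.6, 93.2 and 91.3 in Flox. AdIGF1RKO 1, lowest of all for Acly, Acaca and Elovl6, was the highest library for Srebf1. The difference was 0.08 (SE 0.13), and the table sums the isoforms SREBP-1a and SREBP-1c and says nothing of the cleavage that activates the protein.

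Mlxipl, which encodes ChREBP, had 58.1, 69.6 and 74.6 in AdIGF1RKO, against 67.7, 59.9 and 85.0 in Flox, a difference of -0.06 (SE 0.16) that was 0.06 with equal sums. Nr1h3, the oxysterol receptor LXR-alpha, had 83.0, 74.2 and 79.4 in AdIGF1RKO, against 65.5, 86.2 and 78.5 in Flox. Neither gene placed AdIGF1RKO 2 apart from the other libraries. The table does not separate the isoforms of ChREBP.

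Thrsp and Mid1ip1, known partners that modulate acetyl-CoA carboxylase activity and lipogenesis, had AdIGF1RKO 2 as the highest library and Flox 2 as the lowest, as Fasn did. Thrsp (Spot 14) had 879, 2196 and 1386 in AdIGF1RKO, against 1269, 828 and 1013 in Flox. Its difference of 0.44 (SE 0.34) was 0.11 without AdIGF1RKO 2 and 0.77 without AdIGF1RKO 1. Mid1ip1 had the smallest unadjusted p of the role (0.219, limma), with 37.0, 64.8 and 47.8 in AdIGF1RKO and 44.6, 36.6 and 38.8 in Flox.

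Pnpla3, a lipid droplet acyltransferase and hydrolase that SREBP-1 and ChREBP are known to induce, had 405, 522 and 578 scaled CPM in AdIGF1RKO, against 476, 441 and 452 in Flox. AdIGF1RKO 2 and 3 lay above the controls and AdIGF1RKO 1 lay below them, with a difference of 0.12 (SE 0.14). Gpd1, glycerol-3-phosphate dehydrogenase, which supplies the glycerol backbone of triglyceride, had 515, 907 and 645 in AdIGF1RKO, against 549, 468 and 767 in Flox. Aldoc, an aldolase, was the gene that failed the filter, with 13 to 62 reads per library.

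**Figure D4:**
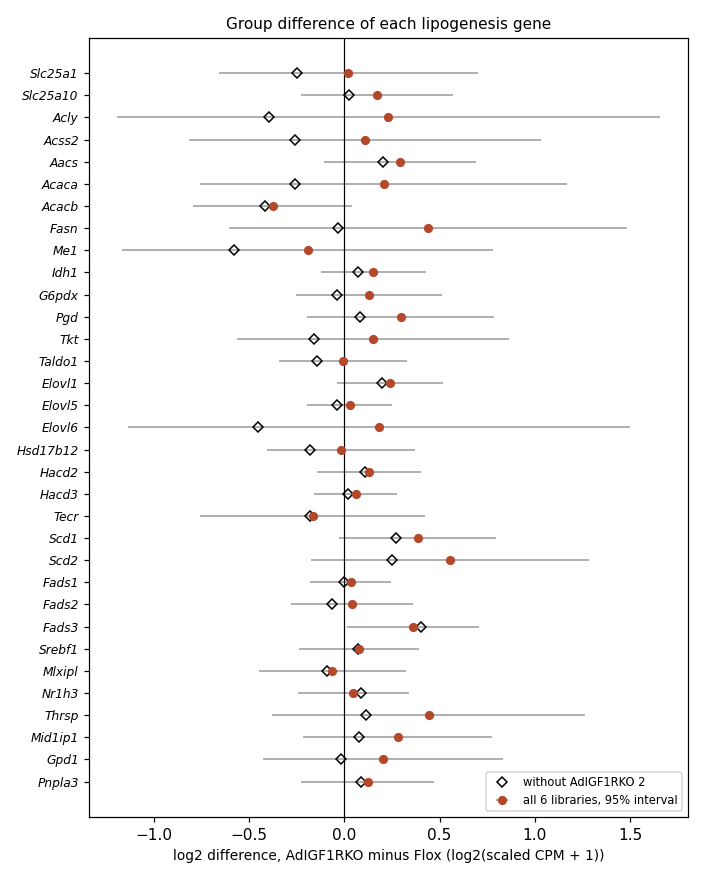
Log2 difference (AdIGF1RKO minus Flox) of each tested lipogenesis gene with its 95% interval from limma (filled points), and the difference without AdIGF1RKO 2 (open diamonds). The intervals of 32 of the 33 genes include 0, that of Fads3 does not, and the diamonds for Acly, Elovl6, Acaca and Fasn lie left of 0.

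Per kilobase of annotated exon (GENCODE M21, union of exons), Scd1 had the highest mean level over the 6 libraries, at 2228 scaled CPM per kilobase. Thrsp followed at 576, Pnpla3 at 309.5 and Taldo1 at 249. At the low end Acacb had 4.36, Fads2 3.89 and Aldoc 0.146. The union of exons is longer than the transcripts in use for genes with many isoforms, such as Acaca, so this order is approximate.

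Ratios of genes within a library do not depend on library scaling, and 5 were compared. The Acaca to Acacb ratio was 5.28, 12.3 and 4.75 in AdIGF1RKO, against 5.22, 4.27 and 4.02 in Flox. The groups overlapped, since AdIGF1RKO 3 lay below Flox 1, and the log2 ratio differed by 0.59 (exact 2-sided permutation p = 0.2, adjusted p = 1 over the 5 ratios; the smallest p that 3 against 3 allows is 0.1). Without AdIGF1RKO 2 that difference was 0.16. The Fasn to Adipoq ratio, which sets the synthase against an adipocyte hormone gene, was 0.213, 0.761 and 0.248 in AdIGF1RKO, against 0.307, 0.140 and 0.301 in Flox. Its log2 difference of 0.54 (exact permutation p = 0.6) rested on AdIGF1RKO 2 and was -0.03 without it.

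The Scd1 to Scd2 ratio was 101, 53.1 and 62.2 in AdIGF1RKO, against 68.0, 106 and 66.1 in Flox. It was highest in Flox 2 and AdIGF1RKO 1, the libraries lowest in the core enzymes. The Elovl6 to Elovl5 ratio was 0.276, 1.07 and 0.368 in AdIGF1RKO, against 0.533, 0.314 and 0.472 in Flox, with a log2 difference of 0.15 (exact permutation p = 0.9). The Fads2 to Fads1 ratio differed by 0.01 in log2 (exact permutation p = 1), and the Scd1 to Scd2 ratio by -0.17 (exact permutation p = 0.5).

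**Figure D5:**
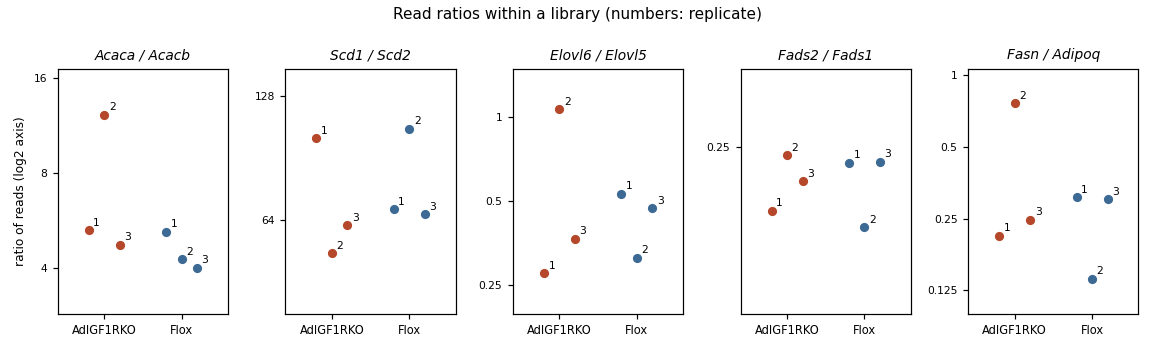
Ratio of the reads of 2 genes in each library, on a log2 axis, for AdIGF1RKO (left) and Flox (right) with replicate numbers. AdIGF1RKO 2 is highest for Acaca over Acacb (12.3), Elovl6 over Elovl5 (1.07) and Fasn over Adipoq (0.761), and the groups overlap in every panel.

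Other genes of the pathway were also short of the threshold. Of 21 regulators of lipogenesis tested (the SREBP processing machinery, Mlx and Mlxip, the RXR and USF factors, AMPK subunits and others), none passed limma and none had an unadjusted p under 0.05. Positive differences numbered 6, against 44.8% of all tested genes, and 15 were negative, with a median of -0.06. With equal library sums 12 of the 21 were positive, against 9397 of the 12993 tested genes. Srebf2, the SREBP of sterol synthesis, averaged 25.9 ± 2.35 scaled CPM in AdIGF1RKO and 22.8 ± 0.283 in Flox (SD, 3 mice each), without overlap and with a difference of 0.17 (SE 0.10). Lpin1, a phosphatidate phosphatase and regulator of SREBP, averaged 160.1 ± 4.06 in AdIGF1RKO and 178 ± 15.1 in Flox, also without overlap, with a difference of -0.15 (SE 0.09). Of the 21, 1 lay above and 1 below without overlap, near the background of 4.41% and 3.86% of all tested genes.

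Of 21 genes that lead from pyruvate to citrate or shuttle reducing equivalents, none had an unadjusted p under 0.05 in the main limma fit. That fit used all 6 libraries and no replicate block. In it 16 were negative, with a median of -0.06. With equal library sums 8 were negative, where 9397 of the 12993 tested genes were positive. The smallest unadjusted p of that main fit belonged to Pdk2 (0.196, limma), a kinase that blocks pyruvate dehydrogenase. Pdk2 averaged 62.1 ± 23.0 in AdIGF1RKO and 101 ± 57.4 in Flox. Its libraries held 57.2, 41.9 and 87.2 scaled CPM in AdIGF1RKO, against 71.7, 63.2 and 167 in Flox, lower in AdIGF1RKO within each same-numbered pair although the groups overlapped. The labels state no such pairing. The difference was -0.61 (SE 0.42), and with replicate number as a block its unadjusted limma p was 0.00602. In that fit 4.48% of all tested genes lay under 0.05 and 0 passed adjustment. Flox 3, the highest library for Pdk2, had the most muscle RNA, whose part in the Pdk2 values was not tested. Without AdIGF1RKO 3 and Flox 3 the Pdk2 difference was -0.45 with an unadjusted limma p of 0.0438. In that setting 381 of the 12993 tested genes lay under 0.05, and 0 passed adjustment. Pdk3 was next, with 9.05 ± 0.426 in AdIGF1RKO and 7.89 ± 1.54 in Flox. Of 7 other pentose phosphate and NADPH genes, 3 were positive (5 with equal library sums) and 4 negative, led by Rpia (25.5 ± 1.90 in AdIGF1RKO and 29.3 ± 3.89 in Flox) and Rpe (67.6 ± 11.7 in AdIGF1RKO and 57.8 ± 0.862 in Flox).

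Of 20 other elongases, desaturases and acyl-CoA genes, 14 were tested and 9 were positive. With the values as deposited 3 were positive, against 1917 of the 12993 tested genes. Of the 14, 1 had an unadjusted limma p under 0.05. That gene was Degs1, the dihydroceramide desaturase, with 139 ± 7.62 in AdIGF1RKO and 118 ± 9.93 in Flox, no overlap, and a difference of 0.24 (SE 0.10) that had an adjusted limma p of 0.998. Among all tested genes, 2.96% had an unadjusted limma p under 0.05 and 4.41% lay above without overlap. Cyb5r3, the reductase that passes electrons to the desaturases through cytochrome b5, averaged 157 ± 11.6 in AdIGF1RKO and 139.6 ± 7.65 in Flox, with a difference of 0.17 (SE 0.09). Elovl3, which is on the brown and beige marker list, and Scd3 were not analysed individually here.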

How the data were processed

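Per the labels' protocols, stranded libraries were made from polyadenylated RNA of 6 mice. GRCm39 is the build in the submitters' processing notes; aligner, counting tool and annotation: not given in the sources used here. Values in the 1 table deposited by the authors, named FPKM, are a signal: in every library each value is a whole number of reads times 1 constant, within a tolerance of 0.5, for 100% of the values, with no division by gene length. The table holds no 0.

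For each library the recovered reads were divided by its median-ratio size factor and by the geometric mean of the resulting library sums, and put on the CPM scale. Genes with a mean of at least 1 were fitted with limma 3.58.1 (R 4.3.3), 2-sided and with the trend option, on log2(scaled CPM + 1), with Benjamini-Hochberg adjustment over all 12993 genes at a threshold of 0.05. edgeR 4.0.16 and DESeq2 1.42.0 on the reads, other scalings, pseudocounts, filters, a replicate block and left-out libraries were alternatives. The fits were tested on simulated data. Same-numbered libraries deviated together (correlations of 0.347, 0.349 and 0.834 for numbers 1, 2 and 3), which met a rule of over 0.1 in every pair. The pairing was used only in the replicate block, and the main fit was unpaired. The labels state no pairing, and other pairs correlated too. AdIGF1RKO 1 correlated better with Flox 2 (0.700), and AdIGF1RKO 2 with Flox 1 reached 0.326, so the numbers do not establish a pairing. Per-library values are printed for the committed steps and best known regulators, the smallest p of each role and genes without overlap. The members, lists and rules were chosen with earlier results of these data known. The sequence tables are of GRCm38.p6 and were matched by symbol.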

Additional observations from a re-analysis of the deposited data

How the results depend on the processing

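No lipogenesis gene reached an adjusted p under 0.05 under any alternative run; the lowest adjusted p of any of them was 0.722. The number at an unadjusted p under 0.05 was 1 as reported, 0 with the values as deposited, with equal sums, with edgeR and without AdIGF1RKO 3 and Flox 3, 2 with a mean of at least 5, 4 with DESeq2 (Acacb, Scd1, Scd2 and Fads3), and 0 to 6 without each library in turn (6 without AdIGF1RKO 1: Aacs, Pgd, Scd2, Thrsp, Mid1ip1 and Pnpla3, against 3.66% of all tested genes). The replicate block gave 1 as well, but Acacb in place of Fads3; it changed no adjusted call, and the genes at an unadjusted p under 0.05 among all tested were 582 with the block, 385 without it, 244 with equal sums and 242 to 475 without each library in turn. Over all genes DESeq2 called 23, and 0 to 1 passed limma without each library in turn. The positive lipogenesis genes numbered 14 in the deposited scaling, where 1917 of the 12993 tested genes were positive and the median of all genes was -0.17. They numbered 15 to 30 without each library in turn, and their median ranged from -0.02 without AdIGF1RKO 2 to 0.26 without AdIGF1RKO 1.

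Of 33 genes, 14 kept their sign without each library in turn. The others ranged from -0.25 to 0.18 (Slc25a1), -0.40 to 0.72 (Acly), -0.26 to 0.42 (Acss2), -0.26 to 0.50 (Acaca), -0.036 to 0.74 (Fasn), -0.58 to 0.13 (Me1), -0.037 to 0.22 (G6pdx), -0.16 to 0.31 (Tkt), -0.14 to 0.089 (Taldo1), -0.038 to 0.075 (Elovl5), -0.45 to 0.61 (Elovl6), -0.18 to 0.093 (Hsd17b12), -0.36 to 0.10 (Tecr), -0.0033 to 0.076 (Fads1), -0.066 to 0.11 (Fads2), -0.042 to 0.20 (Srebf1), -0.18 to 0.074 (Mlxipl), -0.061 to 0.13 (Nr1h3) and -0.016 to 0.40 (Gpd1). The log2 ratios ranged from 0.16 to 0.85 (Acaca to Acacb), -0.44 to 0.049 (Scd1 to Scd2), -0.43 to 0.55 (Elovl6 to Elovl5), -0.11 to 0.088 (Fads2 to Fads1) and -0.033 to 0.89 (Fasn to Adipoq). With the values as deposited the sign turned for Slc25a1 (-0.14), Acss2 (-0.056), Idh1 (-0.011), G6pdx (-0.034), Tkt (-0.012), Elovl5 (-0.14), Hacd2 (-0.035), Hacd3 (-0.10), Fads1 (-0.13), Fads2 (-0.11), Srebf1 (-0.086), Nr1h3 (-0.12) and Pnpla3 (-0.043), with that shift of all genes. With equal sums it turned for Taldo1 (0.12), Hsd17b12 (0.11) and Mlxipl (0.059), where the median of all genes was 0.09. Taldo1 turned with edgeR (0.0024) and DESeq2 (0.0055), and without AdIGF1RKO 3 and Flox 3 the sign turned for Me1 (0.064), Taldo1 (0.029), Hsd17b12 (0.038) and Tecr (0.017). The cause of these turns was not tested. With 3 mice a group, the 95% intervals of Acly, Elovl6, Fasn, Acaca, Acss2, Scd2 and Thrsp reach past a 2-fold higher level and those of Acly, Elovl6 and Me1 past a 2-fold lower one, so these data do not exclude differences of that size.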
